A study of Homo sapiens with 22 samples.

Results

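VCAM1, ICAM1, TNFAIP3, TNFAIP6, NFKBIA, NFKB2, RELB, BIRC3, BCL2A1 and LCN2 are targets and feedback genes of NF-kB, and they are described here in human neuroblastoma cells with shRNAs against the long non-coding RNA gene CASC15. They are 10 of the 63677 genes listed, and they were selected on their measured levels, for being higher with the shRNA group sh004 than in controls after 7 days of retinoic acid. All 10 passed the filter on low values, 1 RPKM or more in at least 2 libraries of a table, but some passed only through sh004 libraries. Among monolayers, BCL2A1 reached 1 RPKM in the 2 sh004 day 7 libraries alone and LCN2 in those and 1 other library. Among spheres, BCL2A1 and LCN2 reached it in the sh004 spheres alone, and ICAM1, TNFAIP3, TNFAIP6 and BIRC3 in those and 1 other sphere. Counts over all 10 include these genes, and in the sh004 sphere comparison the filter itself favours a difference for them. Because the contrast of sh004 with controls at day 7 chose the members, their levels in it are a description, and no test of it is given for them.

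NF-kB is a family of dimeric transcription factors that inhibitor proteins hold in the cytoplasm until a receptor for TNF, interleukin 1 or a bacterial product activates the IkB kinase complex. The freed dimers switch on cytokines, adhesion molecules and survival genes, and also their own brakes, among them the IkB alpha gene NFKBIA and the ubiquitin editor gene TNFAIP3. In an alternative branch, p100, the product of NFKB2, is processed to p52, which pairs with RELB.

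RNA was sequenced from 22 libraries. SH-SY5Y, an adrenergic neuroblastoma line, carried integrated lentiviral shRNA under puromycin selection, and nothing in the labels says that a line is 1 clone or that libraries came from separate transductions. Stable cells of group sh004 (CASC15-004) and group sh003 (CASC15-003), each made with either of a pair of shRNAs called sh1 and sh2, stood against cells with a scrambled shRNA. Cells were in serum medium (day 0), in retinoic acid for 7 days at a dose the labels give as 10 mM (day 7), or in sphere medium, and KELLY neuroblastoma cells had received SOX9 siRNA or control siRNA.

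At day 7 the monolayer groups held 2 sh004 libraries (sh1 and sh2, both batch 2), 3 sh003 libraries (sh1 of batch 2, sh2 of batches 1 and 2) and 2 control libraries (batches 1 and 2). At day 0 they held 2 sh004 libraries (sh1 and sh2, both batch 2), 3 sh003 libraries (sh2 of batches 1 and 2, sh1 of batch 3) and 3 control libraries (batches 1, 2 and 3). There were 2 sh004 spheres, 2 sh003 spheres (sh1 and sh2 in each group) and 1 control sphere, and 1 KELLY library with each siRNA. All sh004 monolayers were of batch 2, and sh1 of group sh003 was sequenced at day 0 in batch 3 only.

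Each shRNA targets CASC15 RNA at a different position, and the sequences are printed because the members' levels differ between sh1 and sh2 of a group. They are given in lower case, 5′ to 3′, as the labels give them.
sh004 sh1: caggctgttcccagggattta
sh004 sh2: taggaataccttacatccaat
sh003 sh1: ctagcactgacctccttcatt
sh003 sh2: ctttccatcagccaacaatat
Each 21-base sequence matched 2 of the 8 CASC15 transcripts of annotation release 29 and no transcript of another gene, and sh1 and sh2 of group sh004 share a run of at most 3 bases. On GRCh38 the sh004 sequences lie on the plus strand at chr6:22146977-22146997 (sh1) and chr6:22146898-22146918 (sh2), and the sh003 sequences at chr6:21668702-21668722 (sh1) and chr6:21668743-21668763 (sh2).

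CASC15 over the whole gene read 1.31 and 1.48 RPKM (reads scaled to gene length and to the library's assigned reads) in sh004 cells at day 7, against 3.33 and 3.26 RPKM in controls at day 7. It read 1.16 and 1.14 RPKM in sh004 cells at day 0, against 1.31 to 2.38 RPKM in controls at day 0. In libraries labelled sh003 it read 2.08 to 3.38 RPKM at day 7 and 1.57 to 2.65 RPKM at day 0, which overlapped the controls. These values sum transcripts with and without the targeted sequence, so they do not check the knockdown of one transcript, and group sh003 is named below by its label. SOX9 read 0.974 RPKM with SOX9 siRNA and 5.61 RPKM with control siRNA.

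Some libraries stood apart before any comparison. The 2 batch 3 libraries at day 0 held most members at several times the level of the other day 0 libraries except sh004 sh1. At day 0 sh004 sh1 held 7 members over 1 log2 unit above the batch 2 control. Its lead over sh003 sh2 of batch 1 was smaller for some, with RELB at 19.5 against 14.2 RPKM and NFKBIA at 34.3 against 22.6 RPKM. Among the sh003 spheres, sh1 held most members at several times the level of sh2. CYP26A1, the retinoic acid hydroxylase gene that retinoic acid switches on, read 9 RPKM in sh004 sh2 at day 7, against 221 to 687 RPKM in the other 6 day 7 libraries. For 2 sh003 libraries (day 7 sh1 of batch 2 and day 0 sh2 of batch 1) the culture tag contradicts the title, and CYP26A1 was at 687 and 0.199 RPKM in them. Libraries held 11.9 M to 62.1 M assigned reads, and p-values measure only the spread between libraries, which may be technical. In the fits, libraries of sh1 and sh2 stood as replicates of their group, so that spread also holds any difference between the shRNAs. ICAM1 and TNFAIP3 overlap antisense genes and TNFAIP6 overlaps small RNA genes, and whether counting used strand is not given in the sources used here.

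Of the noradrenergic markers, DBH, the dopamine beta-hydroxylase gene, read 16.5 to 565 RPKM over the SH-SY5Y libraries, and TH, the tyrosine hydroxylase gene, read 0 to 3.34 RPKM. DBH was 59 and 565 RPKM in sh004 sh1 and sh2 at day 7, against 247 and 167 RPKM in controls at day 7, so the 2 sh004 libraries lay on either side of the controls. The macrophage markers (6 genes) summed to 0.609 and 0.809 RPKM in sh004 cells at day 7 and to 0.764 and 0.969 RPKM in controls at day 7, and to at most 2.99 RPKM in any library, with TYROBP at 0 in all sh004 monolayers. The endothelial markers (5 genes) summed to at most 0.748 RPKM in SH-SY5Y libraries. PECAM1 was listed at 0 in every library, KELLY included, so nothing is read from it. In bulk RNA, fewer cells of a type and less RNA per cell cannot be told apart.

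The promoters of 5 members are printed to show which of them carry the kappa B consensus, the 10-base element NF-kB dimers bind. Letters come from RefSeq on GRCh38.p14, from 250 bases before to 50 bases after the gene's start, on the gene's strand, and capitals mark matches to the consensus on either strand.
VCAM1 (chr1:100719492-100719791, plus strand): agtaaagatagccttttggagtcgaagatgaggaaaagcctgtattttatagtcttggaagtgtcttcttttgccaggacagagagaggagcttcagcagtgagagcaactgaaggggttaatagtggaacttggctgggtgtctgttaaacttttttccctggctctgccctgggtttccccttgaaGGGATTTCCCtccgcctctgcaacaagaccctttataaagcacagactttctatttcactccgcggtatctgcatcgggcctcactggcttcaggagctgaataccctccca
NFKBIA (chr14:35404700-35404999, minus strand): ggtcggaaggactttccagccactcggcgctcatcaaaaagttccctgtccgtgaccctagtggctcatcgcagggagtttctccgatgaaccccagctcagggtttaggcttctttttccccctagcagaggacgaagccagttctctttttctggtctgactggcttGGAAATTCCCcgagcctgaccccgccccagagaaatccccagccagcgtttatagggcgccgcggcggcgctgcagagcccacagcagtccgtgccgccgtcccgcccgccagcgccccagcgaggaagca
BIRC3 (chr11:102317234-102317533, plus strand): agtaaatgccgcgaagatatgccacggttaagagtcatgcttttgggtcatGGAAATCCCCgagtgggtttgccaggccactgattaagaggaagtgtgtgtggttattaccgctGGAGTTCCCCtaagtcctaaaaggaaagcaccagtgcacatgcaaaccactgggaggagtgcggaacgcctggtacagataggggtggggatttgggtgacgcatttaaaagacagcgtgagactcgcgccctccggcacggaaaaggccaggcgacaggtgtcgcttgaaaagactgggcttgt
LCN2 (chr9:128149203-128149502, plus strand): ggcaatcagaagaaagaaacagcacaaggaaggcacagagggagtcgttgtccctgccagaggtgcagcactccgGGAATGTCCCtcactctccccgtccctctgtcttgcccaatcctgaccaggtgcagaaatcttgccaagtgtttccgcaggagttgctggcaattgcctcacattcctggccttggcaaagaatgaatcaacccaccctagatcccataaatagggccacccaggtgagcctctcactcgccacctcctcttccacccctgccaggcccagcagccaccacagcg
BCL2A1 (chr15:79971147-79971446, minus strand): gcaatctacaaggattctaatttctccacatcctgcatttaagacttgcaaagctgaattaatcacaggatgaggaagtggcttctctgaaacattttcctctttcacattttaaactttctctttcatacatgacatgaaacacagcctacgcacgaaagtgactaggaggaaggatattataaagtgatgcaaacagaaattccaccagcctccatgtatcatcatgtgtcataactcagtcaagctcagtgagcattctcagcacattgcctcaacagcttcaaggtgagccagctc
A match was found in 6 of the 9 members with a window in the table (66.7%: VCAM1, TNFAIP3, NFKBIA, NFKB2, BIRC3, LCN2), against 13.3% of all 27305 genes in it and 40.9% of 66 other NF-kB pathway genes. The VCAM1 match spans bases -62 to -53 from the start and the NFKBIA match bases -81 to -72. The windows of ICAM1, TNFAIP6 and BCL2A1 held no match to the consensus. Since the members were listed as NF-kB targets, their share of matches describes them and is no result of the RNA levels. BCL2A1 and LCN2 are shown because they part from the other members at day 0.

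**Figure D1:**
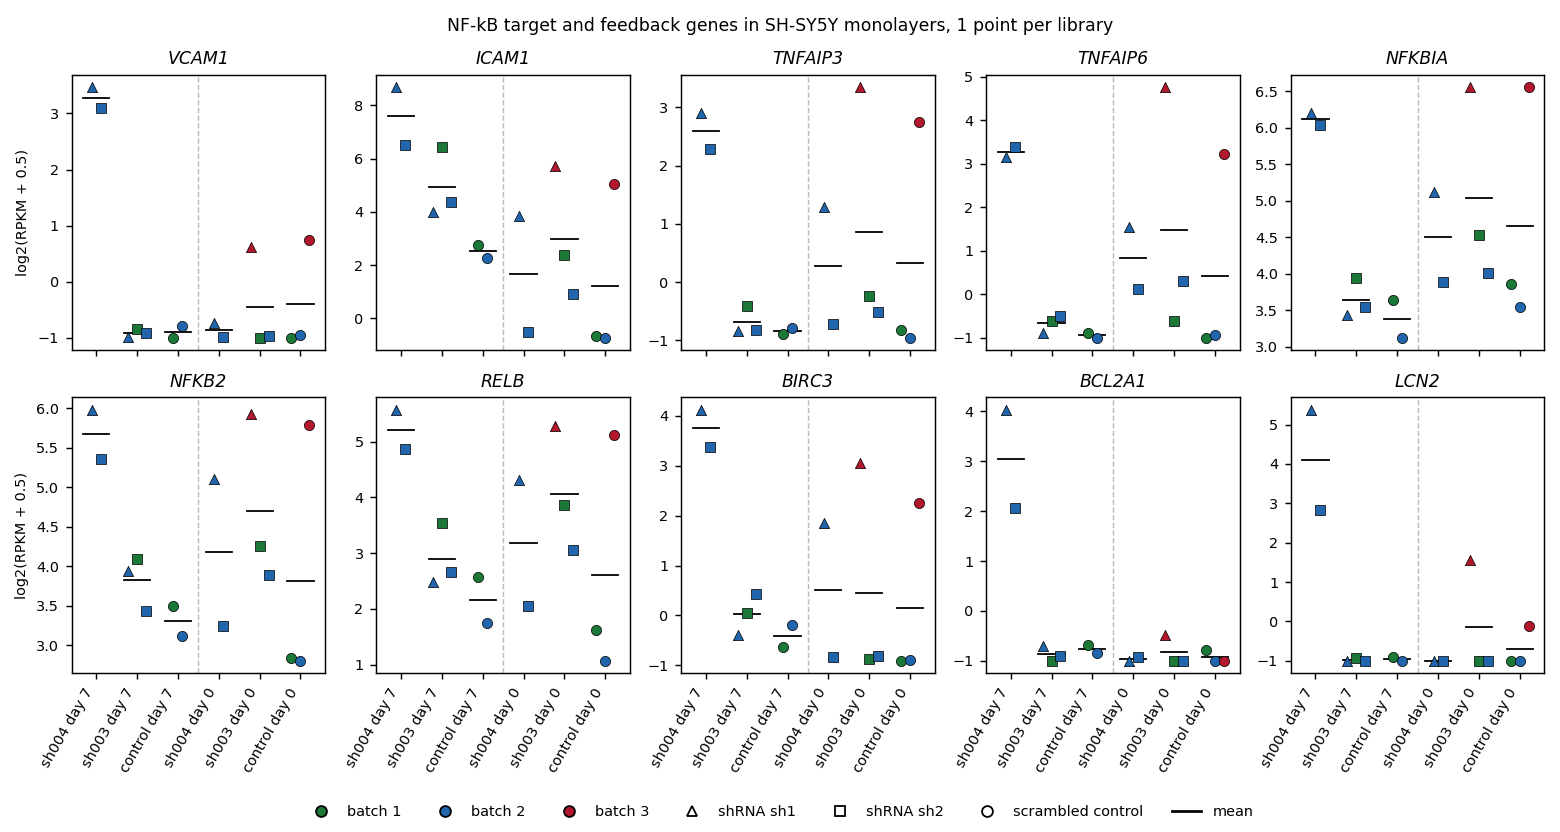
Level of each of the 10 genes in the 15 SH-SY5Y monolayer libraries, as log2(RPKM + 0.5), by group, with colour for batch, shape for shRNA and a bar for the group mean. At day 7 both sh004 libraries lie above every control library in all 10 panels, and at day 0 the batch 3 libraries (red) lie high in most panels but not for BCL2A1.

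Of the adhesion molecules, VCAM1 was nearly absent from day 7 controls and ICAM1 was not. VCAM1, a ligand for leukocyte integrins, read 10.6 and 8.01 RPKM in sh004 sh1 and sh2 at day 7, 0.00506, 0.0602 and 0.0298 RPKM in sh003 cells at day 7, and 0 and 0.0816 RPKM in controls at day 7. The 0 rests on 0 reads, which allows up to 0.0323 RPKM, counting error only. At day 0 VCAM1 read 0.101 and 0.00456 RPKM in sh004 cells, 0, 0.0116 and 1.04 RPKM in sh003 cells (batches 1, 2 and 3) and 0, 0.0208 and 1.16 RPKM in controls (batches 1, 2 and 3). Outside the sh004 day 7 libraries, only the batch 3 pair reached 1 RPKM among monolayers.

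ICAM1, a ligand for the integrin LFA-1, read 408 and 90.1 RPKM in sh004 cells at day 7, 15.3, 86.3 and 20.1 RPKM in sh003 cells at day 7, and 6.29 and 4.31 RPKM in controls at day 7. At day 0 it read 14 and 0.209 RPKM in sh004 cells, 4.74, 1.37 and 51.5 RPKM in sh003 cells and 0.136, 0.102 and 32.2 RPKM in controls. The sh004 sh1 value at day 7 was 4.53 times that of sh2, and sh2 was close to the batch 1 sh003 library of the same day. ICAM1 was also the member that differed most between day 7 and day 0 within a batch of controls, 46.1-fold in batch 1 and 42.4-fold in batch 2.

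Among monolayers the feedback genes NFKBIA and TNFAIP3 peaked at day 0 in batch 3. NFKBIA read 73.5 and 65.2 RPKM in sh004 cells at day 7, 10.3, 14.8 and 11.1 RPKM in sh003 cells at day 7, and 12 and 8.21 RPKM in controls at day 7. At day 0 it read 34.3 and 14.2 RPKM in sh004 cells, 22.6, 15.6 and 94.0 RPKM in sh003 cells and 14, 11.2 and 93.8 RPKM in controls. The 2 batch 3 libraries thus held more NFKBIA RNA than either sh004 day 7 library, and held it at the same level with sh003 and with the scrambled shRNA.

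TNFAIP3, which encodes A20, read 6.95 and 4.35 RPKM in sh004 cells at day 7, 0.0549, 0.254 and 0.0646 RPKM in sh003 cells at day 7, and 0.0389 and 0.0799 RPKM in controls at day 7. Its day 0 levels were 1.95 and 0.104 RPKM in sh004 cells, 0.345, 0.196 and 9.72 RPKM in sh003 cells and 0.0670, 0.0125 and 6.25 RPKM in controls. Day 7 sh004 libraries did not overlap the other day 7 libraries, but they lay on either side of the batch 3 control.

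The subunit genes were expressed in every library. NFKB2, the p100 gene, read 62.8 and 40.7 RPKM in sh004 cells at day 7, 14.8, 16.6 and 10.3 RPKM in sh003 cells at day 7, and 10.8 and 8.21 RPKM in controls at day 7. At day 0 NFKB2 read 33.9 and 8.92 RPKM in sh004 cells, 18.7, 14.3 and 60.3 RPKM in sh003 cells and 6.65, 6.47 and 54.9 RPKM in controls. In each batch the sh003 library at day 0 lay above the control library of that batch.

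RELB, the partner of p52, read 47.1 and 28.7 RPKM in sh004 cells at day 7, 5.08, 11.1 and 5.81 RPKM in sh003 cells at day 7, and 5.43 and 2.85 RPKM in controls at day 7. At day 0 RELB read 19.5 and 3.66 RPKM in sh004 cells, 14.2, 7.78 and 38.3 RPKM in sh003 cells and 2.58, 1.60 and 34.3 RPKM in controls. The sh003 and control libraries overlapped on both days, while within each batch every sh003 library lay above its control of that day.

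The survival genes differed from each other at day 0. BIRC3, the cIAP2 ubiquitin ligase gene, read 16.9 and 9.92 RPKM in sh004 cells at day 7, 0.258, 0.535 and 0.847 RPKM in sh003 cells at day 7, and 0.148 and 0.375 RPKM in controls at day 7. Its day 0 levels were 3.10 and 0.0590 RPKM in sh004 cells, 0.0441, 0.0706 and 7.75 RPKM in sh003 cells and 0.0337, 0.0378 and 4.30 RPKM in controls. BIRC3 followed the pattern of most members, high in batch 3 and in sh004 sh1 at day 0.

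BCL2A1, an anti-apoptotic BCL2 family gene, read 15.8 and 3.67 RPKM in sh004 cells at day 7, 0.112, 0 and 0.0331 RPKM in sh003 cells at day 7, and 0.120 and 0.0567 RPKM in controls at day 7. At day 0 it had 0 and 0.0253 RPKM in sh004 cells, 0, 0 and 0.219 RPKM in sh003 cells and 0.0773, 0 and 0 RPKM in controls. In the batch 3 control BCL2A1 had 0 reads, which allows up to 0.0985 RPKM, while 8 other members, all but LCN2, were above 1 RPKM there.

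The genes of secreted proteins also parted at day 0. TNFAIP6, which encodes the hyaluronan-binding protein TSG-6, read 8.44 and 10.0 RPKM in sh004 cells at day 7, 0.0388, 0.154 and 0.206 RPKM in sh003 cells at day 7, and 0.0413 and 0 RPKM in controls at day 7. At day 0 it read 2.41 and 0.595 RPKM in sh004 cells, 0.157, 0.737 and 26.6 RPKM in sh003 cells and 0, 0.0199 and 8.87 RPKM in controls. TNFAIP6 was the only member higher in sh2 than in sh1 among sh004 day 7 libraries, and it peaked among monolayers in the batch 3 sh003 library.

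LCN2, the siderophore-binding lipocalin gene, read 41.0 and 6.56 RPKM in sh004 cells at day 7, 0, 0.0295 and 0 RPKM in sh003 cells at day 7, and 0.0316 and 0 RPKM in controls at day 7. Its day 0 levels were 0 in both sh004 libraries, 0, 0 and 2.48 RPKM in sh003 cells and 0, 0 and 0.417 RPKM in controls. The sh1 library held 6.24 times the LCN2 level of the sh2 library at day 7. Against the batch 2 control at day 7, where 0 reads allow up to 0.0450 RPKM, sh1 was at least 910-fold and sh2 at least 146-fold higher.

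Over the 10 members, the difference between sh004 cells and controls at day 7 had a median of 3.99 on the log2(RPKM + 0.5) scale, which understates the change of low genes, beside -0.15 over all 19461 genes tested. All 10 were over 1 log2 unit higher in sh1 and all 10 in sh2 than in the control of the same batch, beside 4.82% and 2.33% of all genes, and the choice of members fixes this count. Between the sh004 libraries at day 7, 3 members were over 1 log2 unit higher in sh1 than in sh2, ICAM1, BCL2A1 and LCN2, beside 7.09% of all genes. With limma and Benjamini-Hochberg adjustment over all genes, 0% of genes were called higher in sh004 cells at day 7, while 1564 had an unadjusted p under 0.05 and limma voom on reads called 0. A gene was called at an adjusted p under 0.05.

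The epithelial markers (5 genes) summed to 8.08 and 1.81 RPKM in sh004 cells at day 7 and to 0.397 and 0.444 RPKM in controls at day 7. KRT5 and KRT14 were at 0 in both groups, and KRT14 was listed at 0 in every library. ELF3 alone held 7.85 and 1.53 RPKM of the sh004 sums, and at day 0 the batch 3 libraries summed to 2.57 RPKM with sh003 and 1.62 RPKM with the control shRNA. Interferon-stimulated genes (9 of 10 matched) summed to 49.8 and 63.0 RPKM in sh004 cells at day 7 and to 27.5 and 25.4 RPKM in controls at day 7, though sh003 cells at day 7 read 41.4 to 69.8 RPKM. IFI6 alone held 39.8 and 52.7 RPKM of the sh004 sums, against 23.1 and 19.9 RPKM in controls at day 7, while ISG15 read 2.04 and 1.09 RPKM in sh004 cells and 1.65 and 2.04 RPKM in controls at day 7. The part of either in the members' levels was not tested.

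Whether sh004 cells already differed at day 0 was tested, since day 0 libraries are outside the day 7 contrast that chose the members. No member was called (limma, 0 of 10, beside 0% of all genes called higher), with 0 at an unadjusted p under 0.05 and 0 by limma voom. The members' median difference was 0.16 (log2), beside -0.07 over all genes. The widest was RELB at 0.58 (SE 1.10), with adjusted p = 1.00 in limma.

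The batch 3 control bears on this comparison, since sh004 cells have no batch 3 library. Differences lay above 0 for 5 members without the block, beside 40.9% of all genes, and for all 10 with batch as a block. The share of all genes above 0 with the block is not given here. Without the batch 3 pair the members' median difference was 1.26 (log2), and with the block TNFAIP6 differed by 1.84 (SE 0.44) and RELB by 1.92 (SE 0.66), again with adjusted p = 1.00 in limma and 0% of all genes called higher. At an unadjusted p under 0.05 the block fit had 5 of 10 members, TNFAIP6, RELB, NFKBIA, NFKB2 and TNFAIP3, beside 719 of 19461 genes. The shRNAs did not read alike. Against the batch 2 control, 7 members were over 1 log2 unit higher in sh004 sh1, beside 2.17% of all genes, and 1 member, TNFAIP6, in sh004 sh2, beside 1.36%. ICAM1 was 138-fold, BIRC3 82.0-fold, RELB 12.2-fold and NFKBIA 3.06-fold higher in sh1 than in that control. In sh2 ICAM1 was 2.05-fold, BIRC3 1.56-fold, RELB 2.29-fold and NFKBIA 1.27-fold higher. The sh1 library lacked BCL2A1 and LCN2 reads, and VCAM1 stayed at 0.101 RPKM, so the 7 were the remaining members.

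**Figure D2:**
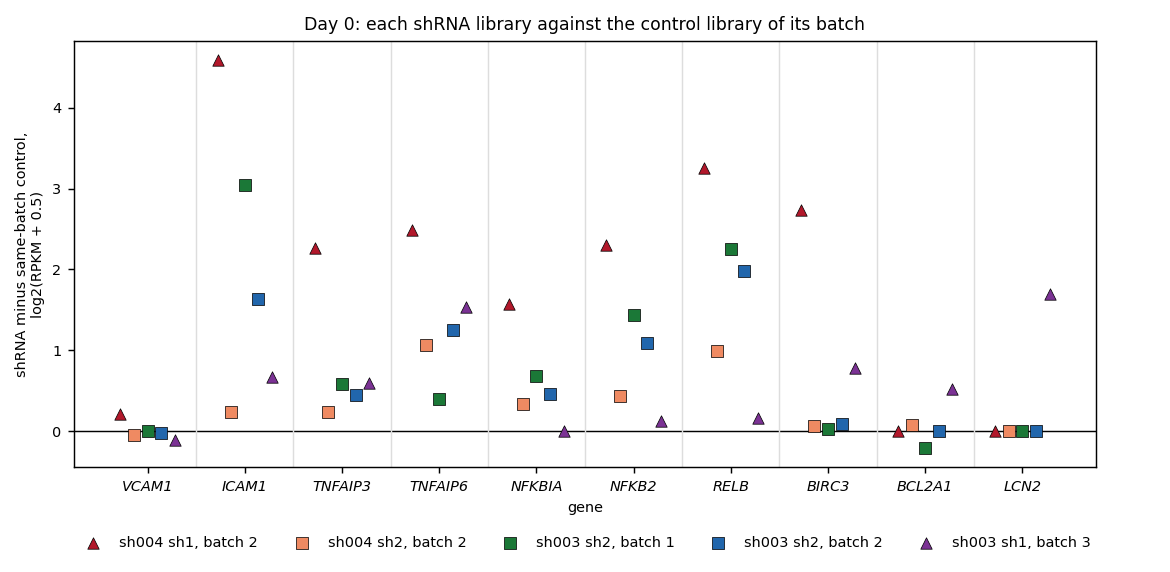
Difference in log2(RPKM + 0.5) at day 0 between each shRNA library and the control library of its batch, for the 10 genes, with 0 marking no difference. The sh004 sh1 points (dark red triangles) lie over 1 unit for 7 genes, and the sh003 points of batches 1 and 2 lie above 1 for ICAM1, NFKB2 and RELB.

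The comparison of sh003 cells with controls at day 0 sets the other CASC15 shRNA group beside sh004. No member was called (limma, 0 of 10, beside 0.00514% of all genes called higher), with 0 at an unadjusted p under 0.05 and 0 by limma voom. The members' median difference was 0.55 (log2), beside -0.06 over all genes. RELB differed by 1.46 (SE 0.98, adjusted p = 1.00, limma) and ICAM1 by 1.78 (SE 1.72, adjusted p = 1.00, limma). With batch as a block RELB had SE 0.53 and adjusted p = 0.313, and TNFAIP6 differed by 1.06 (SE 0.35, adjusted p = 0.266), both in limma, beside 0.200% of all genes called higher.

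Within batches, sh003 minus control for RELB was 2.25, 1.98 and 0.16 (log2) in batches 1, 2 and 3. For NFKB2 it was 1.43, 1.09 and 0.13, and for ICAM1 3.04, 1.63 and 0.67. These 3 genes were higher with sh003 in each of the 3 batches, by less in batch 3, which was also the batch of shRNA sh1. TNFAIP3 (0.58, 0.44 and 0.60), TNFAIP6 (0.39, 1.25 and 1.53) and BIRC3 (0.03, 0.09 and 0.78) were also higher in each. Their order by batch is not read from these values, since the scale understates the change of low genes. As a ratio, TNFAIP3 was 5.15-fold higher in batch 1 and 1.56-fold in batch 3. BIRC3 was 1.87-fold higher in batch 2 and 1.8-fold in batch 3. TNFAIP6 was 3-fold higher in batch 3, and the remaining ratios rest on too few reads to give. Over 1 log2 unit higher were 3 members in batch 1 (beside 4.53% of genes), 4 in batch 2 (3.12%) and 2 in batch 3 (3.28%). In batch 3 the 2 were TNFAIP6 at 1.53 and LCN2 at 1.70, whereas NFKBIA differed by 0.00.

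Controls of different batches also differed. The batch 3 control at day 0 was over 1 log2 unit above the batch 1 control for 8 members (beside 9.02% of genes) and above the batch 2 control for 8 members (5.37%), all but BCL2A1 and LCN2. ICAM1 was 236-fold, TNFAIP3 93.2-fold, RELB 13.3-fold and NFKBIA 6.72-fold above the batch 1 control. RELB was 21.5-fold and NFKBIA 8.37-fold above the batch 2 control. Both batch 3 libraries are undifferentiated cells with no CASC15-004 shRNA.

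The change with retinoic acid in sh003 cells was tested because it uses no library of the contrast that chose the members. No member was called (limma, 0 of 10, beside 1.57% of all genes called higher and 0.786% lower), with 0 at an unadjusted p under 0.05 and 0 by limma voom. The median over members was -0.85 (log2), beside 0.05 over all genes, and NFKBIA differed by -1.40 (SE 0.79, adjusted p = 0.388, limma). With batch as a block the members' median was -0.06. In that fit 1 member was called, ICAM1, which rose by 3.76 (SE 1.05, adjusted p = 0.0410, limma), beside 8.65% of all genes called higher and 5.63% lower.

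Within a batch, ICAM1 in sh003 sh2 cells was 18.2-fold higher at day 7 than at day 0 in batch 1 and 14.7-fold higher in batch 2. In these pairs 1 member was over 1 log2 unit higher at day 7 in batch 1 (beside 8.49% of genes) and 2 in batch 2 (9.11%), ICAM1 in both and BIRC3 in batch 2. ICAM1 was the only such member in controls, beside 8.82% of genes in batch 1 and 6.6% in batch 2. NFKBIA read 0.655 and 0.713 times its day 0 level in those sh003 pairs and 0.856 and 0.732 times in the control pairs. In sh004 cells, as a description, ICAM1 was 29.2-fold higher at day 7 in sh1 and 432-fold in sh2, and NFKBIA 2.14-fold and 4.58-fold. Over 1 log2 unit higher at day 7 were 9 members in sh1 (beside 6.66% of genes), all but NFKB2, and 10 in sh2 (5.3%), a count the choice of members bears on. NFKB2 was 1.85-fold higher at day 7 in sh004 sh1 and 4.56-fold in sh2, the smaller step belonging to the shRNA that was high at day 0.

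Spheres were not used to pick members. Their deposited RPKM rest on library totals that change from gene to gene, so the reads were recovered and scaled again by the total of their own library, and no level is compared with the monolayer table. All 10 members were over 1 log2 unit above the control sphere in sh004 sh1 (beside 7.21% of genes) and in sh004 sh2 (beside 7.08%), and 9 lay above it by any amount in sh003 sh1, with BCL2A1 at 0 reads in both. For the 6 members that needed a sh004 sphere to pass the filter, their place in the count of 10 is not independent of that filter.

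ICAM1 read 40.7 and 35.5 RPKM in sh004 spheres (sh1 and sh2), 10.3 and 0.738 RPKM in sh003 spheres (sh1 and sh2) and 0.493 RPKM in the control sphere. VCAM1 read 12.7 and 9.18 RPKM in sh004 spheres, 3.18 and 0.0655 RPKM in sh003 spheres and 1.49 RPKM in the control sphere. The control sphere lay between the 2 sh003 spheres for VCAM1 and below both for ICAM1.

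NFKBIA read 141 and 69.5 RPKM in sh004 spheres, 107 and 14.7 RPKM in sh003 spheres and 18.1 RPKM in the control sphere. TNFAIP3 read 4.08 and 2.61 RPKM in sh004 spheres, 2.75 and 0.0358 RPKM in sh003 spheres and 0.0410 RPKM in the control sphere. For both feedback genes, sh003 sh1 lay within the sh004 range and sh003 sh2 slightly below the control.

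RELB reached 160 and 135 RPKM in sh004 spheres, against 56.5 and 2.90 RPKM in sh003 spheres and 3.66 RPKM in the control sphere. NFKB2 reached 148 and 107 RPKM in sh004 spheres, against 71.9 and 14.1 RPKM in sh003 spheres and 7.38 RPKM in the control sphere. Both alternative-branch genes had their sphere maximum with sh004, and sh003 sh1 came next.

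BIRC3 read 11.5 and 9.50 RPKM in sh004 spheres, 11.1 and 0.433 RPKM in sh003 spheres and 0.207 RPKM in the control sphere. BCL2A1 read 2.32 and 2.56 RPKM in sh004 spheres and had 0 reads in both sh003 spheres and in the control sphere, where 0 reads allow up to 0.0710 RPKM. The sh003 sh1 sphere thus matched sh004 spheres in BIRC3 and had no BCL2A1.

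TNFAIP6 read 32 and 16.8 RPKM in sh004 spheres, 1.51 and 0.776 RPKM in sh003 spheres and 0 in the control sphere, where 0 reads allow up to 0.0490 RPKM. LCN2 read 1.25 and 5.71 RPKM in sh004 spheres, 0.104 and 0 RPKM in sh003 spheres and 0 in the control sphere, where 0 reads allow up to 0.0376 RPKM. Mean sh004 levels were at least 498-fold higher than the control for TNFAIP6, at least 92.5-fold for LCN2 and at least 34.4-fold for BCL2A1, each against the 3-read floor of the control library.

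**Figure D3:**
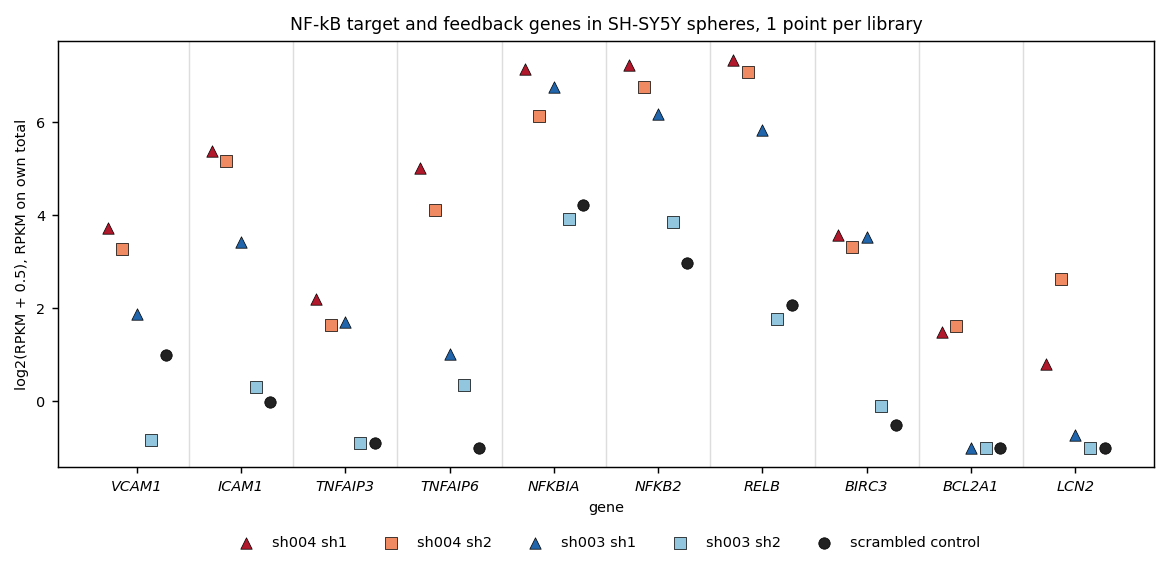
Level of the 10 genes in the 5 SH-SY5Y sphere libraries, as log2(RPKM + 0.5) on each library's own total, 1 point per library. Both sh004 spheres lie above the control sphere for every gene, and sh003 sh2 lies near the control for most.

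Against the single control sphere, 1 of 10 members was called in sh004 spheres, TNFAIP6, which rose by 5.57 (log2, SE 0.47, adjusted p = 0.0383, limma), beside 0.122% of all genes called higher. TNFAIP6 is among the genes that passed the filter only with the sh004 spheres, and so is ICAM1, whose value is given below. Of the 4 members that passed it without them (VCAM1, NFKBIA, NFKB2, RELB), 3 had an unadjusted p under 0.05, beside 3268 of all 14711 genes. The exception was NFKBIA (adjusted p = 0.245, limma). The median difference of the 4 was 3.26 (log2), beside -0.16 over all genes. RELB differed by 5.14 (SE 1.43, adjusted p = 0.139), ICAM1 by 5.28 (SE 1.11, adjusted p = 0.109) and NFKB2 by 4.01 (SE 0.85, adjusted p = 0.109), all in limma. The control was assumed to vary like the shRNA pairs, and sh1 lay above sh2 by a median of 2.65 (log2) over the members in sh003 spheres and 0.36 in sh004 spheres.

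The count depended on which sphere was left out, through the spread and through the number of genes that passed the filter. The counts of 6 and 9 given next include members that passed the main filter only with the sh004 spheres. Their calls are not independent of that filter, and the share over all genes is no matched background for them. Without sh003 sh1 6 members were called higher (beside 1.44% of genes), and without sh003 sh2 9 members (beside 2% of genes), all but LCN2. Without either sh004 sphere 0 were called, limma voom on reads called 0 (beside 0.0204% of genes) and the values as deposited gave 8 (beside 0.935%).

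In sh003 spheres no member was called (limma, 0 of 10, beside 0% of all genes), and 0 by limma voom. At an unadjusted p under 0.05 there was 1, TNFAIP6 at 1.68 (SE 0.47, adjusted p = 0.199, limma), beside 2811 of all 14711 genes. The members' median was 1.48 (log2), beside -0.00 over all genes. In sh003 sh1 7 members were over 1 log2 unit above the control (beside 5.78% of genes), and in sh003 sh2 1 member, TNFAIP6 (beside 8.13%). Without sh003 sh2 4 members were called higher, ICAM1, NFKB2, RELB and BIRC3, beside 0.648% of genes, but that fit sets 1 sphere against 1 and takes all its spread from the sh004 pair. BIRC3 was 53.9-fold, ICAM1 20.9-fold and RELB 15.4-fold above the control in sh003 sh1, and 2.10-fold, 1.5-fold and 0.791-fold in sh003 sh2.

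In sh004 spheres the interferon-stimulated genes summed to 94.1 and 115 RPKM, of which IFI6 held 78.5 and 96.6 RPKM, against sums of 35.2 and 41.5 RPKM in sh003 spheres and 26.5 RPKM in the control sphere. The macrophage markers summed to 2.99 and 1.95 RPKM in sh004 spheres and 1.62 RPKM in the control sphere. PTPRC, AIF1 and TYROBP were at 0 in sh004 spheres, while 1 of the 6 markers reached 1 RPKM there, and 1 did in the control sphere. The epithelial markers summed to 2.65 and 4.04 RPKM in sh004 spheres and 0.880 RPKM in the control sphere, with KRT5 and KRT14 at 0 and ELF3 at 1.78 and 2.96 RPKM in sh004 spheres. The part of these in the members' levels was not tested.

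Other NF-kB pathway genes were read from a list of 81, of which 80 matched. The list was made from pathway knowledge, but with earlier results of these data known. Of the remaining subunit genes, RELA held 29.1 and 23.6 RPKM in sh004 cells at day 7 and 29.2 and 23.8 RPKM in controls at day 7, and REL 0.869 and 1.01 RPKM against 0.942 and 0.861 RPKM in controls at day 7. NFKB1, the p105 gene and itself an NF-kB target, read 23.8 and 16.0 RPKM in sh004 cells at day 7 and 5.65 and 5.24 RPKM in controls at day 7. In the batch 3 pair at day 0 NFKB1 read 30.7 RPKM with sh003 and 26.5 RPKM with the control shRNA.

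Between sh004 cells and controls at day 7, 0 of the 63 other pathway genes that passed the filter were called (limma), and 0 by limma voom. At an unadjusted p under 0.05 there were 19, beside 1564 of all 19461 genes. Nearest to the threshold were NFKBIE, an IkB gene, at 1.44 (SE 0.40, adjusted p = 0.495) and CXCL10, a chemokine gene, at 5.21 (SE 1.61, adjusted p = 0.520), then NFKBIB at 0.59 (adjusted p = 0.525) and CSF1 at 2.5 (adjusted p = 0.525), all in limma. With batch as a block 5 were called higher and none lower, beside 0.175% of all genes higher. These were complement C3, which rose by 5.45 (SE 0.61, adjusted p = 0.0110), the RNase gene ZC3H12A by 2.67 (SE 0.42, adjusted p = 0.0437), the A20-binding TNIP1 by 1.78 (SE 0.27, adjusted p = 0.0345), NFKB1 by 1.70 (SE 0.24, adjusted p = 0.0300) and the adaptor TRAF3 by 1.09 (SE 0.17, adjusted p = 0.0401), all in limma.

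By role, the inhibitor list leaves out the members and includes atypical IkB genes such as BCL3. All 9 of its genes lay above 0 in the difference between sh004 cells and controls at day 7 (median 0.93 on the log2 scale). So did 19 of 22 other targets (median 1.80), beside 37.3% of all genes, with none of either list called without the block. Kinases and adaptors were split, 10 of 21 higher (median -0.06). IKBKG and IKBKE, kinase complex genes, were listed at 0 in every library, so nothing is read from them. Of ligands and receptors, 8 of 18 passed the filter and 5 of the 8 lay higher (median 1.46).

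At day 0, 0 of 63 other pathway genes were called in sh004 cells and 0 in sh003 cells, with 0 by limma voom in both. At an unadjusted p under 0.05 there was 1 with sh004, beside 378 of all 19461 genes, and 4 with sh003, beside 1125. With sh004 the nearest were BCL2L1 at -0.52, NFKBIE at -0.63, TNFRSF12A at 1.19 and TRADD at -0.42 (log2, each with adjusted p = 1.00, limma). With batch as a block 0 were called and the nearest were SDC4 at 1.06, TRAF3 at 0.48, CCL2 at 4.28 and NFKB1 at 0.65 (each with adjusted p = 1.00, limma). Of the inhibitor list, 7 of 9 genes lay above 0 with the block and 0 of 9 without. Other targets above 0 numbered 20 of 22 with it and 11 of 22 without. Over all genes 40.9% lay above 0 without the block, and the share with it is not given here. With sh003 they were SDC4, a syndecan gene, at 1.33 (SE 0.40, adjusted p = 0.570), TNFRSF12A, the TWEAK receptor gene, at 2.17 (adjusted p = 0.672), TLR4 at 1.41 (adjusted p = 0.709) and CX3CL1 at 1.10 (adjusted p = 0.810), all in limma.

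Between day 7 and day 0 in sh003 cells 0 of 63 were called, and 0 by limma voom. At an unadjusted p under 0.05 there were 7, beside 3598 of all 19461 genes, which is a larger share. The nearest were IKBKB at 0.70 and NFKBIE at -1.28 (adjusted p = 0.0583 and 0.0643, limma). NFKBIB at -0.56 (adjusted p = 0.0799) and MAP3K14 at 0.68 (adjusted p = 0.112) came next, also in limma. With batch as a block 8 were called, beside 8.65% of all genes called higher and 5.63% lower. That count lay near the share over all genes. BCL3, an atypical IkB gene, rose by 1.67 (SE 0.22, adjusted p = 0.00240), the TNF receptor gene TNFRSF1A by 1.67 (SE 0.34, adjusted p = 0.0140), TNFRSF1B by 1.10 (adjusted p = 0.0387), IRF1 by 0.89 (0.0393), and the kinase genes IKBKB by 0.80 (0.0144) and MAP3K14 by 0.62 (0.0209), in limma. NFKBIE fell by 1.01 and NFKBIB by 0.48 on the log2 scale (adjusted p = 0.0370 and 0.0346, limma).

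In sh004 spheres 0 of 58 other pathway genes were called, and 0 by limma voom. At an unadjusted p under 0.05 there were 34, beside 3268 of all 14711 genes. The nearest were CXCL10 at 6.59 (adjusted p = 0.0689), TRAF1 at 3.13 (adjusted p = 0.0894), CXCL8 at 3.79 (adjusted p = 0.0956) and IER3 at 7.49 (adjusted p = 0.1), in limma. In sh003 spheres 0 of 58 were called, and 0 by limma voom. At an unadjusted p under 0.05 there were 4, beside 2811 of all 14711 genes, which is a larger share. Nearest were TNFRSF12A, SDC4, NFKB1 and BCL3 at 1.43, 1.56, 1.24 and 2.04 (log2, adjusted p = 0.183 to 0.253, limma).

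The ligand genes TNF, LTB and IL1B, from the list of 18 ligands and receptors, are named here after their values were seen. Monolayer levels of TNF and LTB are not given here. TNF read 23.0 and 28.4 RPKM in sh004 spheres, 18.5 and 0.0215 RPKM in sh003 spheres and 0.0154 RPKM in the control sphere. LTB, a lymphotoxin gene, read 102 and 105 RPKM in sh004 spheres, 37.5 and 0.328 RPKM in sh003 spheres and 1.41 RPKM in the control sphere. IL1B read 2.48 and 13.4 RPKM in sh004 cells at day 7, against 0.105 and 0.0399 RPKM in controls at day 7. It read 5.04 and 18.9 RPKM in sh004 spheres, against 0 in the control sphere, and in batch 3 at day 0 it read 18 RPKM with sh003 and 1.96 RPKM with the control shRNA. The spheres high in TNF and LTB were the same 3 that were high in RELB, and the part of these ligands in the members' levels was not tested.

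Across the 15 monolayer libraries, the log2 levels of the members correlated with each other at a median r of 0.805 over 45 pairs, from 0.527 (BCL2A1 with NFKBIA) to 0.981. The 5 other genes closest to the members' mean profile were EBI3 (r = 0.980), CXCL10 (0.973), TNIP1 (0.973), TNFAIP2 (0.958) and IL32 (0.954). All 5 peaked in sh004 sh1 at day 7. The members were chosen for high levels in the sh004 day 7 libraries, which are among the 15, and that choice bears on every r given here. Libraries also share batches, shRNAs and days, so these values are descriptions. IL32 read 62.2 and 56.7 RPKM in sh004 cells at day 7, 43.8 RPKM in the batch 3 sh003 library and 40 RPKM in the batch 3 control.

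**Figure D4:**
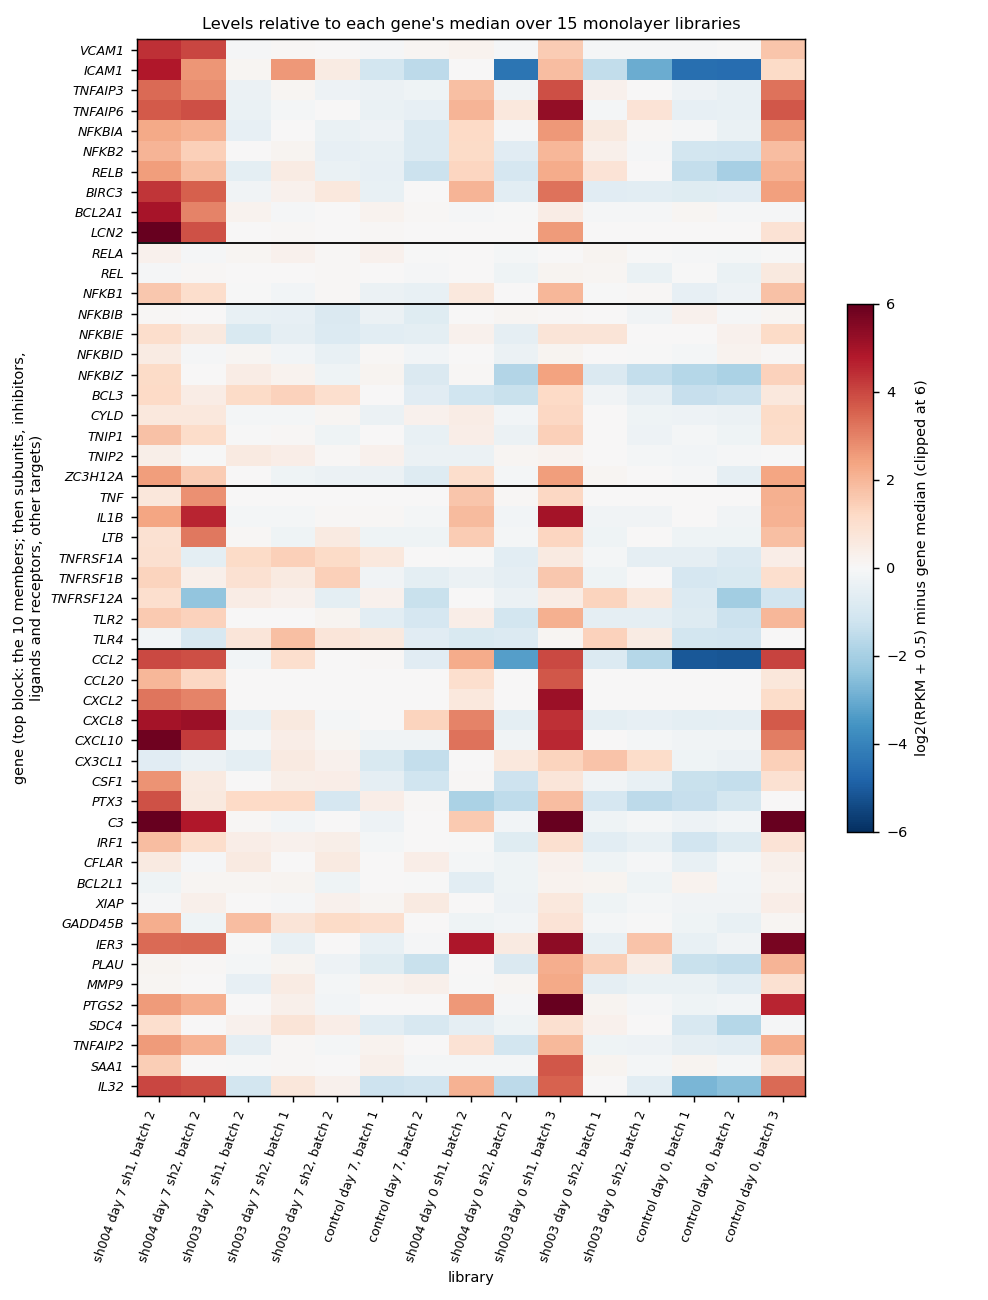
Level of 52 genes (the 10 members, then other NF-kB subunits, inhibitors, ligands and receptors, and targets at 1 RPKM or more in at least 2 libraries) in 15 monolayer libraries, as log2(RPKM + 0.5) minus the gene's median, clipped at 6. Red columns are the sh004 day 7 libraries at the left, sh004 sh1 at day 0, and the batch 3 libraries, and RELA stays near its median in all columns.

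KELLY, a neuroblastoma line, held few members, with 2 of 10 at or above 1 RPKM in both libraries. NFKBIA read 18.9 RPKM with SOX9 siRNA (1074 reads) and 45.0 RPKM with control siRNA (2721 reads), a ratio of 0.419 (95% exact interval 0.39 to 0.45). NFKB2 read 1.64 RPKM with SOX9 siRNA and 2.79 RPKM with control siRNA, a ratio of 0.587 (0.486 to 0.708). RELB had a ratio of 0.822 (0.497 to 1.35), TNFAIP3 of 0.969 (0.51 to 1.83) and BIRC3 of 1.15 (0.821 to 1.62), all at or under 0.518 RPKM. TNFAIP6 had 0 reads with SOX9 siRNA and 7 reads with control siRNA, VCAM1 and ICAM1 had at most 5 reads in a library, and BCL2A1 and LCN2 had 0 reads in both. The intervals cover counting error only, there is 1 library per siRNA, and the difference has no replicate check.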

How the data were processed

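Tables of RPKM per gene were deposited for monolayers, spheres and KELLY cells. Per the submitters' processing notes the authors used TopHat, featureCounts of Subread and hg19, with versions not given in the sources used here. The deposited RPKM gave back whole reads within 0.01 for each gene. Deposited sphere RPKM used 10 library totals in rotation over genes, so sphere RPKM were recomputed with each library's total. The libraries with contradictory culture tags were grouped by title.

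Log2(RPKM + 0.5) was fitted with limma 3.58.1 (R 4.3.3) with a mean-variance trend on genes at 1 RPKM or more in at least 2 libraries of a table, and p-values were adjusted by Benjamini-Hochberg over all 19461 monolayer or 14711 sphere genes. The 15 monolayer libraries entered 1 fit without batch. Batch numbers come from the titles, and same-batch control and sh003 day 0 libraries deviated together (r = 0.942, 0.802 and 0.811), so batch was also fitted as a block. A count-model test planned for recovered reads was replaced by limma voom on those reads because the table was deposited as RPKM, and leaving out the batch 3 pair was added after seeing the data. The fits were tested on simulated data.

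The members and lists were chosen with earlier results of these data known. All members are named, then the other subunits, per comparison up to 8 called pathway genes or, with none called, the 4 of smallest p, and the 5 genes most like the members' mean profile. The number of columns matched to no sample was 0. Intervals and limits from 3 reads (95% exact) cover counting error only.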

Additional observations from a re-analysis of the deposited data

Results flagged for a closer look

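NFKBIA, the IkB alpha gene, moved in opposite directions between day 7 and day 0 in the shRNA groups. It differed by 1.62 (log2) in sh004 cells and by -1.40 in sh003 cells. This difference between the groups was not tested, and NFKBIA in sh004 cells was among the values that chose the genes. In sh003 cells the value was -0.64 without the batch 3 pair and -0.47 with batch as a block (adjusted p = 0.284, limma).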

How the results depend on the processing

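No called member reversed under the alternatives run. Among uncalled values, the replicate block turned the sign of 5 members with sh004 at day 0 (VCAM1, TNFAIP3, NFKBIA, BCL2A1, LCN2) and of 3 with sh003 at day 7 against day 0 (VCAM1, BIRC3, BCL2A1). Members called with sh003 at day 7 against day 0 numbered 0, and 1 with the replicate block on batch. Members called in sh004 spheres numbered 1, and 0 without the filter on low values, 0 by limma voom, 8 on sphere values as deposited, and 0 to 9 when a library was left out. In sh003 spheres leaving out a library gave 0 to 4 members and 0 to 11 other pathway genes. Other pathway genes called with sh004 at day 7 numbered 0, and 1 without the filter, 5 with the replicate block and 2 without the batch 3 pair. With sh003 at day 7 against day 0 they numbered 0, and 1 with median-ratio scaling, 8 with the block, 2 without the batch 3 pair and 0 to 2 without a library. In sh004 spheres they numbered 0, and 1 with a pseudocount of 1, 16 as deposited and 0 to 20 without a library. The median member difference with sh004 at day 7, 3.99, was 5.21 with a pseudocount of 0.1, 3.16 with 1, and 6.00 by voom. Over all genes, calls with sh004 at day 7 were 0, and 69 without the filter, 44 with the block and 10 without the batch 3 pair, and with sh003 at day 0 they were 1, and 4, 49 and 22. With sh003 at day 7 against day 0 they were 458, and 2779 with the block, 714 without the batch 3 pair and 192 without the pair of contradictory tags, and median-ratio scaling gave 235 higher of 500 against 305 of 458. In sh004 spheres they were 19, and 0 without the filter, 3 by voom and 155 as deposited. The replicate block changed no other member call, the cause of these shifts was not tested, the planned count-model test was not run, and leaving out the single control sphere gave no value.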
